A study of Drosophila mojavensis with 137 samples.

Results

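The transcripts described here are 100 male-biased transcripts of Drosophila mojavensis, those whose level differed most between virgin males of the Las Bocas and Punta Prieta populations. They were chosen from the deposited log2 values in 2 steps. The first step took the transcripts whose mean over all virgin females minus that over all virgin males was at least -4 and below -2, which is a male bias of 4-fold to 16-fold and held for 1073 of 14528 transcripts. The second step averaged, over both rearing cacti, the Punta Prieta mean minus the Las Bocas mean of virgin males, and kept the 100 largest values of either sign. Of these 100 members, 85 were higher and 15 lower in Punta Prieta virgin males, and they are called the higher and the lower members below. The label of the set speaks of divergence, but most of the differences were small. Only 3 members exceeded 1 log2 (a 2-fold difference), 9 lay between 0.5 and 1, and 88 lay at or below 0.5.

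Drosophila mojavensis breeds in rotting cactus in the deserts around the Gulf of California. Male-biased transcripts of fruit flies come mostly from the testis, which makes sperm, and from the accessory glands and ejaculatory duct, which make the seminal fluid passed to the female at mating. As a class such genes are known for fast divergence between populations and species. The transcript IDs are not paired with gene names in the files, and 0 of them matched the 15130 genes of the reference table, so no role can be given for a single member and no marker gene of a tissue could be checked.

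Each array measured RNA of whole wild-type adult flies of either population (Las Bocas lies in Sonora, Punta Prieta in Baja California), reared as larvae on fermented agria or organ pipe cactus, virgin or mated, with egg-to-adult development times of 14 to 18 days. Virgin males had 26 Las Bocas arrays (13 on agria, 13 on organ pipe) and 27 Punta Prieta arrays (12 and 15). Mated males had 6 Las Bocas arrays (5 on agria, 1 on organ pipe) and 15 Punta Prieta arrays (5 and 10). Virgin females had 19 and 23 arrays and mated females 7 and 12. RNA of whole flies cannot tell fewer cells of a type from less RNA per cell. Neither separate cultures for the replicates nor the number of pooled flies are given in the labels. The p-values therefore reflect the spread from array to array alone, which may be technical, and the number of arrays limits the precision.

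A sex score was computed for each array as the mean of 328 transcripts over 4-fold female-biased minus the mean of 1331 transcripts over 4-fold male-biased, members left out. Among the 16-day organ pipe arrays, replicate 2 of the Punta Prieta mated males by label scored 3.22, as females do. Replicate 1 of the Las Bocas mated females by label scored -2.76, as males do. Both are left out of every value below unless stated. The descriptions of the latter and of replicate 2 of its group name virgin males of Punta Prieta. For replicate 3 of the virgin Las Bocas females reared 16 days on agria, the description names 15 days. Of the 19 mated female arrays, 3 from Las Bocas on agria had low sex scores (14 days, replicate 1, and 15 days, replicates 1 and 2), as had 1 of the virgin female arrays (Punta Prieta on agria, 14 days, replicate 1). Among virgin males, 2 Punta Prieta arrays on organ pipe stood apart at -2.63 (16 days, replicate 3) and -2.68 (17 days, replicate 1). The next virgin male array was at -2.94. Their means of the higher members were 11.845 and 11.818, against 12.32 over all Punta Prieta virgin males. Both arrays were kept and entered the choice of members. The sex score differed little between populations in virgin flies, with -3.16 ± 0.0918 (SD, n = 26) and -3.19 ± 0.173 (SD, n = 27) in Las Bocas and Punta Prieta males and 3.12 ± 0.371 (SD, n = 19) and 3.18 ± 0.346 (SD, n = 23) in females. It moved with population in mated flies. In mated males it was -3.06 ± 0.107 (SD, n = 6) in Las Bocas and -3.23 ± 0.0793 (SD, n = 15) in Punta Prieta, and in mated females 2.66 ± 0.612 (SD, n = 7) and 3.21 ± 0.252 (SD, n = 12).

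The members were bright in males and dim in females. In virgin males 77 of the 100 lay above the median of all transcripts (11.37), and 3 lay below the lower quartile. In virgin females 72 lay below the lower quartile of all transcripts, 9.89. The rule itself asked for a lower level in virgin females than in virgin males. The 973 other transcripts of the range were not counted in this way.

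Among all 1073 transcripts of this range of sex bias, the population difference in virgin males already leaned to one side, with 69.6% higher in Punta Prieta and a median of 0.05, against 47.0% and -0.01 over all 14528 transcripts. The median was 0.30 among the 85 higher members, with a range of 0.23 to 2.09, and -0.33 among the 15 lower members, with a range of -0.56 to -0.23. At the limit of the rule the differences were nearly equal: the last 3 members had absolute values of 0.227, 0.226 and 0.2256, and the next 3 transcripts 0.2250, 0.2249 and 0.2237. The last place thus stood for a 1.17-fold difference. All these values chose the members and carry no test.

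**Figure D1:**
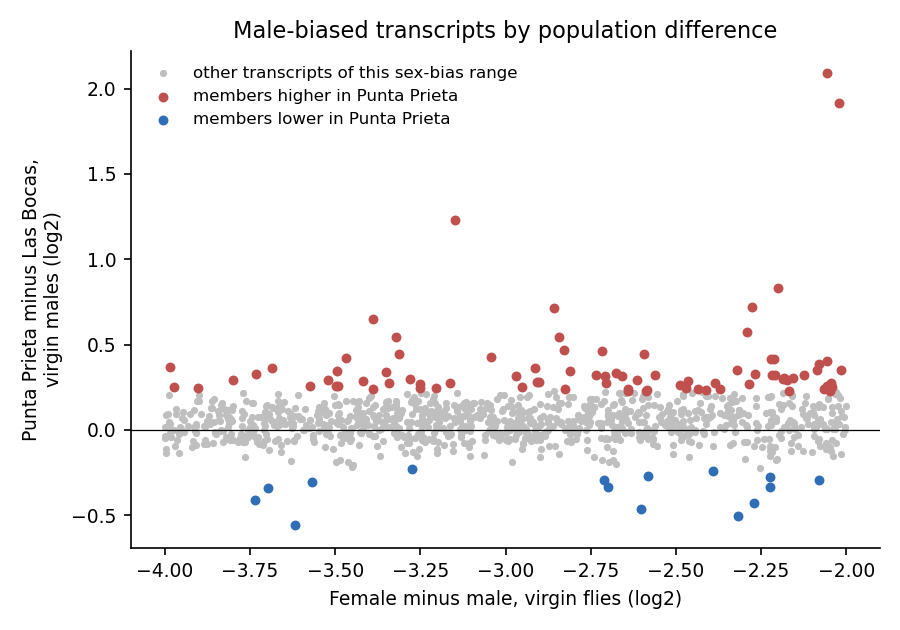
Population difference in virgin males (Punta Prieta minus Las Bocas, log2) against sex bias (female minus male, virgin flies, log2) for the 1073 transcripts with a sex bias between -4 and -2; each point is 1 transcript. The 85 higher members (red) lie above 0.22 and the 15 lower members (blue) below -0.22, and 3 members stand above 1.

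A pair of members stood well above the others. FBtr0172763 had the largest difference of all members, 2.09 log2 or 4.26-fold. Its level in Las Bocas virgin males had a lowest value of 10.08, a median of 11.14 and a highest value of 12.33 (n = 26), and in Punta Prieta virgin males 12.15, 13.26 and 13.94 (n = 27). The ranges overlapped between 12.15 and 12.33. FBtr0175386 followed with 1.92 log2 or 3.77-fold, from 9.21, 10.10 and 10.75 in Las Bocas to 11.10, 12.09 and 13.08 in Punta Prieta. It was the 1 member whose virgin male arrays did not overlap between the populations, where 0.103% of all transcripts did not. These arrays also chose the members. With the populations pooled, both transcripts lay at the weak end of the sex-bias range. Their female minus male values were -2.06 for FBtr0172763 and -2.02 for FBtr0175386. In Las Bocas virgin flies the mean of FBtr0172763 was 10.16 in females and 11.12 in males, and in Punta Prieta 10.13 and 13.24. For FBtr0175386 it was 8.996 and 10.06 in Las Bocas, and 9.05 and 12.00 in Punta Prieta. The male bias of both was thus weaker in Las Bocas than in Punta Prieta.

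The lower members had no difference of that size. FBtr0173409 had the largest, -0.56 log2 or 1.47-fold, with 12.20, 12.59 and 13.04 as lowest, median and highest value in Las Bocas virgin males and 11.17, 12.01 and 12.59 in Punta Prieta. FBtr0169609 differed by -0.50, from 12.26, 12.55 and 12.97 to 11.72, 12.07 and 12.55. For both transcripts the ranges of the populations overlapped.

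**Figure D2:**
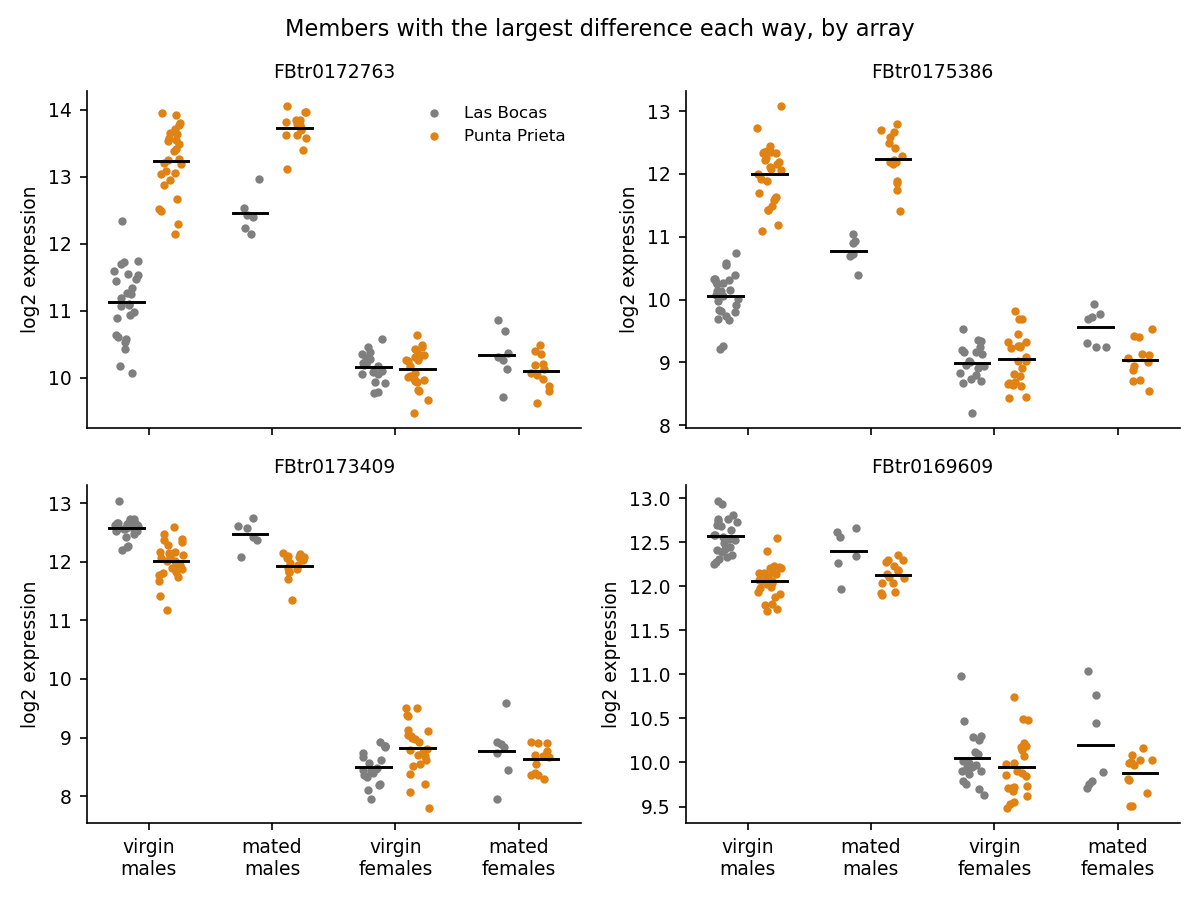
log2 expression of the 2 higher and the 2 lower members with the largest population difference in virgin males; each point is 1 array, grey for Las Bocas and orange for Punta Prieta, and the black lines are group means. For FBtr0175386 the populations do not overlap in virgin or mated males, for FBtr0172763 they overlap slightly in virgin males and not in mated males, and for both they overlap in females.

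Mated males gave a check on arrays that the rule did not use. In the limma fit over the 21 mated male arrays, with population, cactus and development time as terms and Benjamini-Hochberg adjustment over all 14528 transcripts, 28 of the 100 members passed the adjusted p threshold of 0.05. The background was 8.93% of all transcripts, and 63 of the 973 other transcripts of the same sex-bias range passed (6.47%). All 28 had the direction seen in virgin males: 26 were higher members with a higher level in Punta Prieta (background 3.86% in that direction), and 2 were lower members with a lower level (background 5.07%). Such agreement was common among transcripts that passed and not particular to the members. It held for 61 of the 63 others and for 1192 of the 1298 that passed over all transcripts. The folds of the 26 were 1.19 to 2.83. Called or not, 94 of the 100 members had the same sign in mated as in virgin males, against 70.1% of the 973 others and 65.1% of all transcripts. The estimate in mated males reached at least 0.5 times that in virgin males for 70 members, for 529 of the 973 others and for 7614 of all 14528 transcripts. Its median was 0.25 among the higher and -0.23 among the lower members, where it was -0.01 over all transcripts. The median residual SD in this fit was 0.19 for the members and 0.14 for the 973 others.

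FBtr0175386 had a lowest value of 10.39, a median of 10.81 and a highest value of 11.04 in the 6 Las Bocas mated male arrays, and 11.41, 12.22 and 12.80 in the 15 Punta Prieta arrays. The populations did not overlap, and the difference was 1.503 log2 (SE 0.188, adjusted p = 4.94e-05 in limma). FBtr0172763 was at 12.14, 12.41 and 12.96 in Las Bocas and at 13.12, 13.77 and 14.06 in Punta Prieta, again with no overlap. Its difference was 1.34 (SE 0.131, adjusted p = 2.47e-06). In all, 6 members did not overlap between the populations of mated males, all of them higher members, where 1.46% of all transcripts did not.

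FBtr0173409 was lower in Punta Prieta mated males by 0.62 log2 (-0.62, SE 0.109, adjusted p = 0.00121 in limma), at 11.35, 11.98 and 12.16 as lowest, median and highest value against 12.08, 12.51 and 12.75 in Las Bocas. FBtr0173169 was the other lower member to pass, with a difference of -0.26 (SE 0.0614, adjusted p = 0.0122). Its levels were 13.02, 13.18 and 13.35 in Las Bocas and 12.79, 12.91 and 13.10 in Punta Prieta, so that a small overlap remained. FBtr0169609, the second largest of the lower members in virgin males, gave -0.29 (SE 0.101) and did not pass (adjusted p = 0.0806 in limma).

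Of the 12 members over 0.5 log2 in virgin males, 6 passed in mated males, and of the 88 others 22 passed. The member ranked 3 had 1.23 in virgin and 0.60 in mated males (adjusted p = 0.139 in limma). The member ranked 4 had 0.83 and -0.02 (adjusted p = 0.967). These members are mentioned after their values were seen. Whether the difference itself depended on mating was not tested, because its virgin part chose the members.

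**Figure D3:**
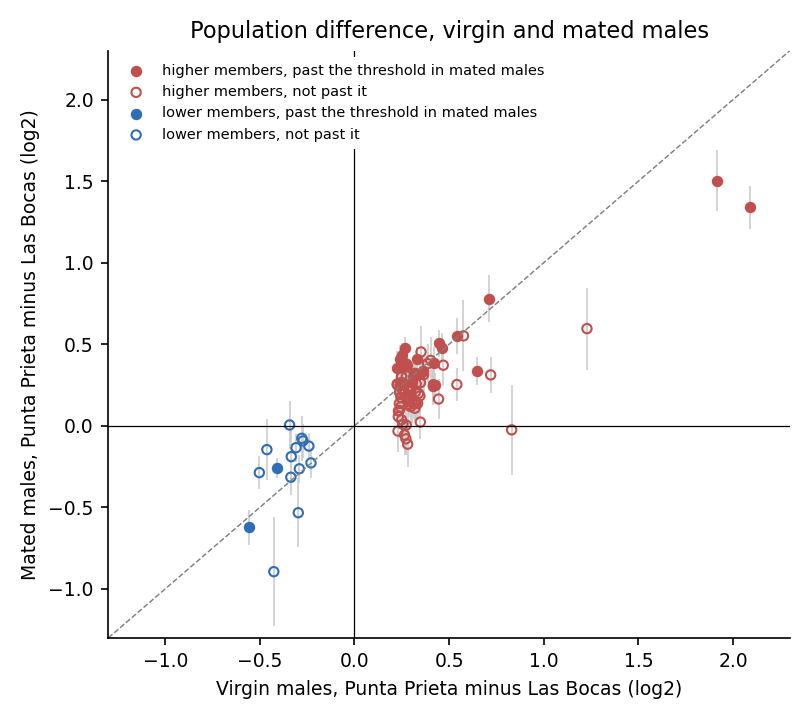
Population difference (Punta Prieta minus Las Bocas, log2) of the 100 members in mated males against that in virgin males, with SE bars from the fit in mated males and a dashed line of equality; filled points passed the adjusted p threshold of 0.05 in mated males. All 28 filled points lie on the side of 0 that the virgin males gave, and the 2 largest fall below the line of equality. Of the 63 other transcripts of this sex-bias range that passed, 61 had the direction of virgin males too.

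The count in mated males rested on few Las Bocas arrays. With the agria arrays alone, 5 against 5 of the same development times, 8 members passed, all of them higher members. The background was 104 of all 14528 transcripts and 1 of the 973 others. Of the 100 members 96 kept the sign of the virgin males, against 70.8% of the 973 others. For the fits that follow the background is not given here. Leaving out replicate number 1 gave 2 members, number 2 gave 18 and number 3 gave 16. Most Las Bocas arrays, among them the only one on organ pipe, had number 1. Without it the Las Bocas arrays left were few, all on agria and of 1 development time. With the array of female profile put back the count was 0 (3 at an unadjusted p below 0.05 in limma). Because the sex score moved with population in mated males, the mean of the other male-biased transcripts was added to the fit, and 34 members then passed, 29 higher and 5 lower. Without its background this count cannot be read as a result about the members.

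In females the population difference of most members was not detected. In the limma fit over 42 virgin female arrays, 9 members passed, against 6.06% of all transcripts and 2.16% of the 973 others. The share was thus near that of all transcripts and above that of the same sex-bias range. The count was 19 with array weights and 25 with the mean of the other male-biased transcripts in the fit, where 3077 and 1669 of all 14528 transcripts passed. The 9 members were 5 higher members that were higher in Punta Prieta females too (background 2.77% in that direction), 3 lower members that were lower there (background 3.29%), and 1 higher member with the opposite direction. The sign was that of virgin males for 39 of the 85 higher and 12 of the 15 lower members, against 42.8% of the 973 others and 58.1% of all transcripts. The median difference was -0.01 among the higher and -0.09 among the lower members, where the 973 others had -0.09 and all transcripts -0.02.

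FBtr0172763 and FBtr0175386, which differed most in males, did not pass in virgin females. FBtr0172763 was at 10.16 ± 0.215 (SD, n = 19) in Las Bocas and 10.13 ± 0.286 (SD, n = 23) in Punta Prieta virgin females, a difference of -0.02 (SE 0.0702). FBtr0175386 differed by 0.06 (SE 0.104), from 8.996 ± 0.305 (SD, n = 19) to 9.05 ± 0.403 (SD, n = 23). The arrays of both populations overlapped throughout.

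Other members passed in virgin females. FBtr0165557 was at 10.17, 11.11 and 12.19 (lowest, median and highest) in Las Bocas virgin females and at 10.88, 12.00 and 12.54 in Punta Prieta. The difference was 0.78 (SE 0.126, adjusted p = 3e-05 in limma), where virgin males had given 0.25. FBtr0165648 was higher by 0.38 in Punta Prieta virgin females (SE 0.106, adjusted p = 0.0231) and by 0.78 in mated males (SE 0.144, adjusted p = 0.00191). Among the lower members FBtr0174650 had a difference of -1.29 in virgin females (SE 0.119, adjusted p = 6.29e-11), with 10.67, 11.31 and 11.83 in Las Bocas and 9.37, 9.89 and 11.12 in Punta Prieta. In virgin males it had -0.46, and in mated males -0.15 (SE 0.189), which did not pass. FBtr0175408 was the member of opposite direction, 0.28 in virgin males but -0.48 in virgin females (SE 0.114, adjusted p = 0.00534).

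**Figure D4:**
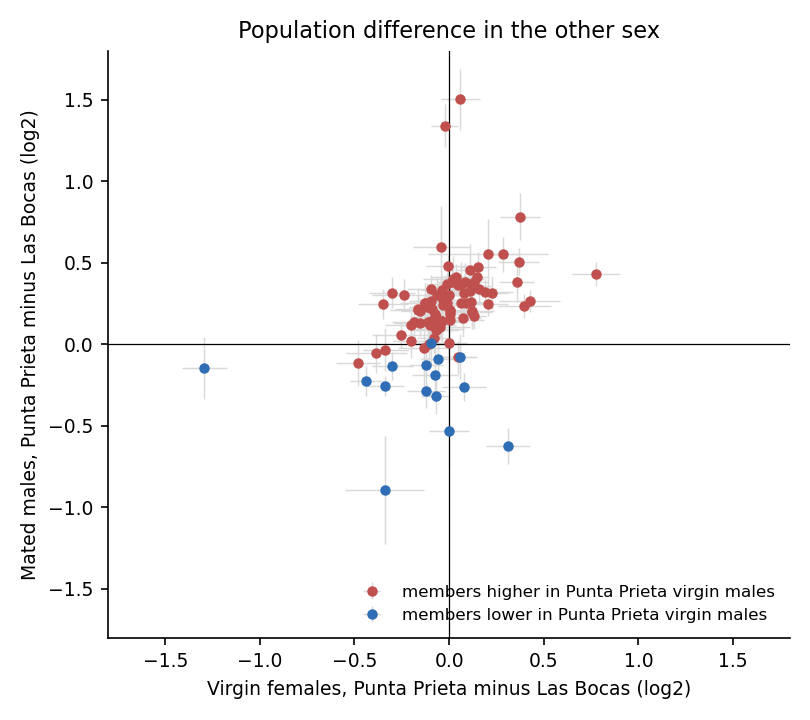
Population difference (Punta Prieta minus Las Bocas, log2) of the 100 members in mated males against that in virgin females, both with SE bars from their fits; red for members higher and blue for members lower in Punta Prieta virgin males. Most red points lie above 0 in mated males but on either side of 0 in virgin females, and the blue point far to the left is FBtr0174650 at -1.29.

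In the 19 mated female arrays 4 members passed in limma, against a background of 2.5% (1.56% higher and 0.943% lower in Punta Prieta). Of the 973 others 1.23% passed. FBtr0165557 was higher in Punta Prieta by 1.62 (SE 0.194, adjusted p = 9.59e-05). Its 7 Las Bocas arrays had a lowest value of 9.56, a median of 10.24 and a highest value of 11.15, and its 12 Punta Prieta arrays 11.57, 12.19 and 12.45, with no overlap. It was the 1 member without overlap in mated females, where 0.619% of all transcripts had none. FBtr0174650 differed by -0.85 (SE 0.154, adjusted p = 0.00576) and FBtr0165928 by -0.71 (SE 0.173, adjusted p = 0.0353), and both are lower members. FBtr0165928 did not pass in 6 of 13 alternatives, with estimates of -1.16 to -0.30 over all 13, and FBtr0174650 did not in 3 of 14, with -1.26 to -0.62. The count of 4 ranged from 0 to 37 over the alternatives.

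Of the 15 lower members, 13 had the direction of virgin males in mated females, and 3 of them passed. The median of the lower members was -0.18, less negative than that of the 973 others given next. Their negative direction was thus shared by the sex-bias range. Only 15 of the 85 higher members had a positive value, and their median was -0.26, where the 973 other transcripts of this sex-bias range had -0.41. The sex score was lower in Las Bocas, as given above. The mean of the higher members was 9.70 ± 0.309 (SD, n = 7) in Las Bocas and 9.39 ± 0.25 (SD, n = 12) in Punta Prieta mated females. Without these 3 arrays the median of the higher members was -0.09, 31 of 85 were positive and 2 members passed. With the mean of the other male-biased transcripts in the fit the median was 0.08, 53 of 85 were positive and 5 members passed, 4 higher and 1 lower. The background of these refits is not given here.

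The difference between the sexes was itself tested in the 40 mated arrays, as the population effect in males minus that in females. In limma 10 members passed, against a background of 0.792%, and 29 of the 973 others (2.98%). The effect was more positive in males for 9 of them (background 0.434%) and more negative for 1 (background 0.358%), and all 10 are higher members. The median was 0.51 among the higher and -0.04 among the lower members, where the 973 others had 0.46 and all transcripts -0.04. A shift of this size was thus shared by the sex-bias range and not particular to the higher members. FBtr0175386 had a difference between the sexes of 1.95 (SE 0.25, adjusted p = 4.07e-05), and FBtr0172763 of 1.505 (SE 0.208, adjusted p = 0.000118). FBtr0165557 had -1.19 (SE 0.212, adjusted p = 0.00322), since its population difference was 1.62 in mated females and 0.43 in mated males. Without the 3 mated female arrays of low sex score 4 members passed, 3 more positive and 1 more negative in males. Leaving out replicate number 1, which most Las Bocas mated male arrays had, gave 0 (10 at an unadjusted p below 0.05 in limma). The background of these refits is not given here.

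In mated flies no member lost its male bias in either population. Virgin flies were not counted in this way. There the male bias of FBtr0172763 was weak in Las Bocas, with means of 10.16 in females and 11.12 in males. In mated flies the female minus male difference of the higher members had a median of -2.16 in Las Bocas, with a range of -3.92 to -1.19, and of -2.89 in Punta Prieta, with a range of -4.36 to -1.61. The bias was over 4-fold for 59 of 85 in Las Bocas and for 83 in Punta Prieta, and within 2-fold for 0 in both. The lower members had medians of -2.40 in Las Bocas and -2.48 in Punta Prieta, with 14 and 13 of 15 over 4-fold. Without the 3 mated female arrays of low sex score the Las Bocas medians were -2.46 for the higher and -2.61 for the lower members. These values are descriptions with no test.

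Mating changed a part of the members in males. In the limma fit over 74 male arrays with population, cactus and development time as terms, 16 members passed between mated and virgin males, against a background of 10.2% of all transcripts (7.59% up and 2.57% down) and 4.42% of the 973 others. Of these, 15 were higher members that rose after mating, by 1.17-fold to 1.95-fold, and 1 was a lower member that fell. The median change was -0.03 over all higher and -0.04 over all lower members, so most members stayed near 0. The virgin male arrays used here also chose the members, through another contrast.

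FBtr0175092 rose most, by 0.97 log2 (SE 0.088, adjusted p = 1.01e-13 in limma). Its median went from 11.80 in virgin to 12.94 in mated Las Bocas males and from 12.51 to 13.28 in Punta Prieta males. The lowest mated Las Bocas array, 12.87, lay above the highest virgin one, 12.30. FBtr0172763 rose by 0.79 (SE 0.122, adjusted p = 1.67e-06), with medians of 11.14 and 12.41 in Las Bocas and 13.26 and 13.77 in Punta Prieta. Ordered by the population difference in virgin males, these members had ranks 5 and 1. FBtr0161226, a lower member, fell by 0.68 (-0.68, SE 0.146, adjusted p = 0.000534), from a median of 12.75 to 12.02 in Las Bocas and from 12.50 to 11.47 in Punta Prieta. The ranges of virgin and mated males overlapped for it in both populations.

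The rearing cactus was tested in the 53 virgin male arrays, which also chose the members through another contrast. There 6 members passed in limma, all higher on organ pipe, against a background of 1.38% of all transcripts (1.36% higher and 0.0275% lower on organ pipe) and 0.206% of the 973 others. They were 5 higher members and 1 lower member. FBtr0161226 had 0.80 log2 more on organ pipe than on agria (SE 0.147, adjusted p = 0.0017). Its Las Bocas arrays had a lowest value of 11.65, a median of 12.24 and a highest value of 12.75 on agria (n = 13) and 12.75, 13.07 and 13.35 on organ pipe (n = 13), and its Punta Prieta arrays 10.78, 12.16 and 12.75 (n = 12) and 11.42, 12.81 and 13.62 (n = 15). The cactus groups met without overlapping in Las Bocas and overlapped in Punta Prieta. FBtr0175092 had 0.56 more (SE 0.0948, adjusted p = 0.000868), with medians of 11.45 and 11.94 in Las Bocas and 12.19 and 12.83 in Punta Prieta. Leaving out replicate number 1, or number 3, gave 0 members (10 and 15 at an unadjusted p below 0.05 in limma).

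The population difference was not shown to depend on the cactus or the members on development time. For the product of population and cactus in virgin males 0 members and 0% of all transcripts passed in limma (4 members at an unadjusted p below 0.05). Its sign was positive for only 7 of the 85 higher members, with a median of -0.12, where the 973 others had -0.08. Both virgin male arrays that stood apart in sex score were Punta Prieta arrays on organ pipe. The higher members had a median population difference of 0.38 on agria and 0.22 on organ pipe, and the lower members -0.30 and -0.36. The rule averaged these values to choose the members, and the fits given here used the same virgin male arrays. For FBtr0172763 it was 2.15 on agria and 2.03 on organ pipe, with a product term of -0.12 (SE 0.241). For development time 0 members and 0% of all transcripts passed (12 members at an unadjusted p below 0.05), with median slopes of 0.00 per day among the higher and 0.03 among the lower members.

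The members were also summarised by development time. The mean of the 85 higher minus the mean of the 15 lower members was between 0.56 and 0.78 in the groups of Punta Prieta virgin males and between -0.24 and 0.06 in those of Las Bocas, a gap that the choice of members fixed. In mated males, which the rule did not use and which had Las Bocas arrays at 14, 15 and 16 days only, single Punta Prieta arrays lay between 0.67 and 0.95 and single Las Bocas arrays between -0.02 and 0.40.

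**Figure D5:**
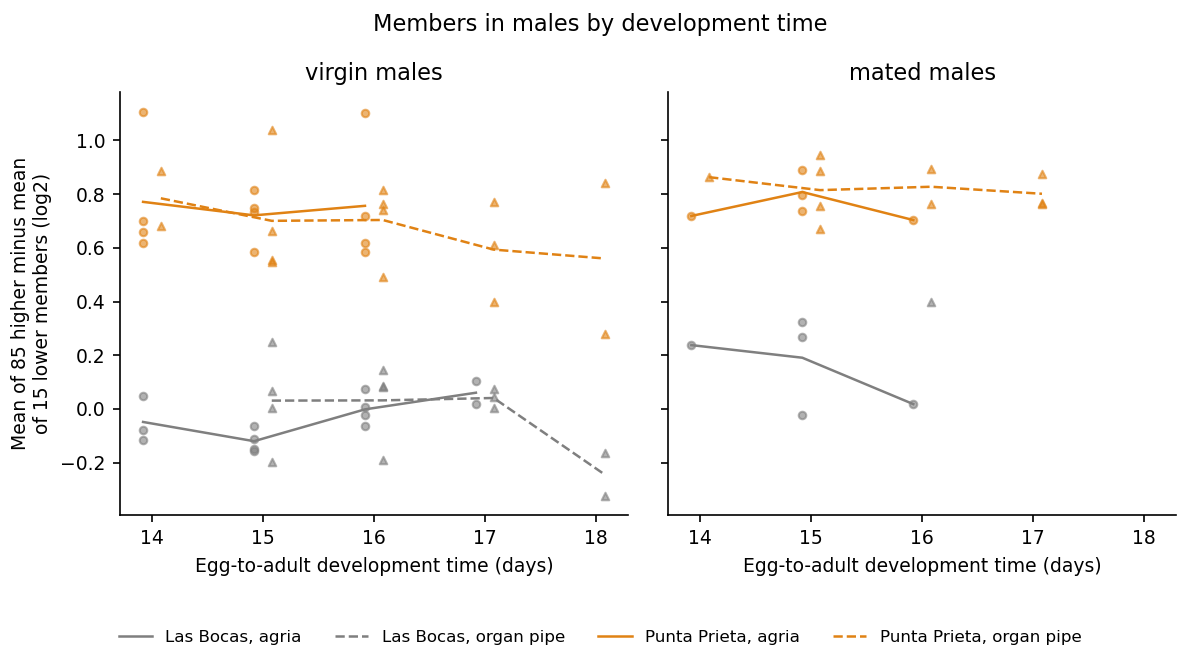
Mean of the 85 higher minus mean of the 15 lower members (log2) against development time in days, in virgin males (left) and mated males (right); each point is 1 array (circles agria, triangles organ pipe) and the lines join group means. All Punta Prieta mated male arrays lie at or above 0.67 and all Las Bocas ones at or below 0.40.

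How far the members varied together was described across arrays. Over the 21 mated male arrays, after removing population, cactus and development time, the median Pearson r was 0.42 between pairs of higher members and -0.11 between pairs of lower members. It was 0.10 between higher and lower members and 0.29 over all pairs of the 1073 transcripts. Pairs over 0.8 made up 7.11% of the 3570 pairs of higher members and 2.76% of all pairs. FBtr0175386 was most like a higher member at r = 0.83 and FBtr0172763 like a higher member at r = 0.77, while the highest r was 0.46 for FBtr0173409 and 0.64 for FBtr0169609. These correlations are across arrays of the same set for each pair and are given as descriptions.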

How the data were processed

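Whole flies were measured on 137 one-colour NimbleGen arrays. The authors deposited log2 expression values of 14528 transcripts per array, made with RMA per the submitters' processing notes. RMA corrects background, equalises the arrays' distributions and summarises probes, so changes of total RNA cannot be seen. For its version, settings and annotation release nothing was given in the sources used here. Slides and scan dates were not analysed here. Values lay between 5.829 and 15.89, with 0 missing and 0 identical arrays, and array medians lay between 11.24 and 11.5.

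Groups came from titles and characteristics. The members and the tests were chosen with earlier results of these data known. Fits used limma 3.58.1 (lmFit, eBayes) in R 4.3.3 on all transcripts, checked on simulated data, with Benjamini-Hochberg adjustment over all of them and a threshold of 0.05. Development time was linear in days. Named were the 2 higher and 2 lower members of largest difference in virgin males, and for each effect at most 2 members each way with the largest effects past the threshold. The planned marker lists were not run, since 0 IDs matched. Alternatives covered scaling, dim transcripts, variance model, array weights, day as categories, replicate numbers, subsets of arrays and, added after seeing the data, the mean of other male-biased transcripts as a covariate and each Las Bocas mated male array left out. Across alternatives, a direction was compared only for named members that passed.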

Additional observations from a re-analysis of the deposited data

Results flagged for a closer look

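The population difference of some members differed between the sexes of mated flies when that difference was tested in limma. It did so for 10 of the 100 members, against 2.98% of the 973 other transcripts of this sex-bias range. All 10 were higher in Punta Prieta virgin males. The population effect in males minus that in females was 1.95 log2 for FBtr0175386 (SE 0.25), 1.505 for FBtr0172763 (SE 0.208) and -1.19 for FBtr0165557 (SE 0.212). FBtr0165557 stands out because its population difference was larger in females, 1.62 in mated females against 0.43 in mated males. For these 3 transcripts the direction held under every alternative run. None of the 3 passed when replicate number 1 was left out (adjusted p of 0.185, 0.12 and 0.635 in limma, in the order given) or when both arrays of opposite profile were put back (0.0756, 0.138 and 0.368). Most Las Bocas mated male arrays had replicate number 1, so few of them remained without it. The sex score of the mated female arrays moved with population too. All 3 transcripts still passed without the 3 mated female arrays of low sex score. Beyond that refit the part of the sex score in these differences was not tested.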

How the results depend on the processing

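Counts of members past the threshold in limma moved by over 1.5 times as follows. The share over all transcripts is not given here beside them, so a move cannot be read as particular to the members. For population in mated males, where 28 passed, the count was 0 with the array of female profile (3 at an unadjusted p below 0.05), 8 with agria arrays only and 58 with population as the only term. For population in virgin females, where 9 passed, it was 2 without dim transcripts (28 members left), 19 with array weights and 25 with the mean of the other male-biased transcripts. For population in mated females, where 4 passed, it was 2 without dim transcripts, with array weights, with the replicate block and without the arrays of low sex score. There it was also 34 with day as categories, 37 with the array of male profile, 1 with agria arrays only and 15 without the array whose description contradicts its title. For the difference between the sexes, where 10 passed, it was 6 with array weights, 35 with day as categories, 6 with the replicate block, 0 with both arrays put back (22 at an unadjusted p below 0.05) and 4 without the arrays of low sex score. For mating in males, where 16 passed, it was 31 with array weights and 6 with the array of female profile. For the cactus, where 6 passed, it was 14 with array weights. The cause of these moves was not tested, other than that fewer arrays or transcripts enter some fits.

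Leaving out 1 replicate number, or 1 Las Bocas array in mated males, gave 2 to 36 members for population in mated males, 4 to 9 in virgin females, 0 to 18 in mated females, 0 to 46 for the difference between the sexes, 12 to 16 for mating and 0 to 7 for the cactus. A count of 0 arose without replicate number 1 in mated females (13 at an unadjusted p below 0.05). For the product of population and cactus and for development time, 0 members passed under every alternative run, with 2 to 15 and 5 to 18 members at an unadjusted p below 0.05. Centring each array on its median gave 15 members higher and 3 lower after mating, against 15 and 1. Of 424 values of named members under an alternative, 382 stayed on their side of the threshold, 32 lost it and 10 gained it, and 0 that passed changed sign. Replicate numbers did not pair the arrays: deviations of virgin male arrays had a median r of 0.02 for the same number and 0.01 for other numbers. The replicate block gave 35 members for population in mated males, 9 in virgin females, 16 for mating and 7 for the cactus.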
